A study of Mus musculus with 40 samples.

Results

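The genes described here are 10 genes of brown and white fat out of the 53647 gene identifiers in the count matrices, each read in all 40 libraries of developing mouse larynx, esophagus and trachea. They were chosen by name and for their pattern in these libraries, namely their onset with age and their spread between the E15.5 trachea libraries, so those features are given below as a description without a test. Ucp1, Cidea, Ppargc1a, Elovl3 and Dio2 are genes of brown, heat-producing fat, and Pparg, Fabp4, Plin1, Adipoq and Lpl are genes that adipocytes of either kind use. All mice were wild type FVB/N. The larynx, the esophagus and the trachea were each taken at 5 embryonic ages (E10.5 and E11.5, then E13.5 and E15.5, then E18.5), as pools of 10 animals or, at E15.5, of 20, and the larynx was also taken at P0 and from adults of 6 to 8 weeks. Each of 14 groups of tissue and age held 2 libraries, and the 3 E15.5 groups held 4 each. What was taken as larynx is labelled primitive laryngopharynx at E10.5. It is labelled vocal fold at P0, in adults and in 2 of the 4 E15.5 libraries.

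Brown adipocytes burn fatty acids to make heat, and uncoupling protein 1 (Ucp1), which short-circuits the proton gradient of their mitochondria, is their defining protein. White adipocytes store triglyceride in a large droplet and secrete hormones such as adiponectin (Adipoq). Pparg is the nuclear receptor that drives adipocyte differentiation and keeps both kinds of adipocyte in their state, and brown fat of the mouse lies between the shoulder blades, around the neck and along the great vessels, and forms before birth. Several of the genes also work elsewhere, since heart and skeletal muscle use Ppargc1a and Lpl, capillary endothelium uses Fabp4, and many tissues use Dio2.

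Totals of expected counts ran from 3286403 to 35831491 per library. Names of 30 libraries hold a short code and names of the other 10 hold a sequencing index. These are called short-code and index libraries here. Short-code libraries held up to 26378626 counts and index libraries at least 22553149. The E15.5 groups hold 2 libraries of each kind, all P0 and adult libraries are index libraries and all others are short-code libraries, so that apart from E15.5 the kind of library cannot be told apart from age. Earlier work on these data set 5 libraries apart from their replicates, namely E11.5 larynx short-code 2, E15.5 larynx short-code 2, both E15.5 trachea short-code libraries and E15.5 esophagus index 2, and results are given with and without them where they enter a test. Cartilage markers (8 genes) checked the esophagus labels at E15.5, with 3302 to 14077 CPM (counts scaled to the library total) summed over the list in the trachea and 8.87 to 235 CPM in the esophagus. In the E15.5 larynx they summed to 1597 to 13346 CPM, which overlaps the trachea, so larynx and trachea labels were not checked by them. At E18.5 they summed to 5614 to 10570 CPM in the trachea, 1855 to 3905 CPM in the esophagus and 1785 to 3105 CPM in the larynx. They thus did not set the esophagus apart from the larynx at that age.

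The promoters of Ucp1, Plin1 and Adipoq are shown because these 3 genes were at or near 0 before E15.5 and high in the short-code libraries of that age. Each sequence runs 5′ to 3′ on the strand of the gene from 250 bases before the RefSeq start to 50 bases after it (build GRCm38.p6), and capitals mark AGGTCA, the core of a nuclear receptor site, in Ucp1, TTGCNNAA, a core of C/EBP sites, in Plin1, and CCAAT, read on either strand, in Adipoq.
Ucp1 (chr8:83290098-83290397, plus strand): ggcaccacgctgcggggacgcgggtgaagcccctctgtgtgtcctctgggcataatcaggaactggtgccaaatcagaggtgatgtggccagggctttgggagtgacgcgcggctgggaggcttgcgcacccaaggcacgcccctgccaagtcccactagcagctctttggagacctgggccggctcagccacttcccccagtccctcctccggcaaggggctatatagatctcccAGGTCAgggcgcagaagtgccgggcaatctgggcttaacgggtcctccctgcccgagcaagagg
Plin1 (chr7:79732727-79733026, minus strand): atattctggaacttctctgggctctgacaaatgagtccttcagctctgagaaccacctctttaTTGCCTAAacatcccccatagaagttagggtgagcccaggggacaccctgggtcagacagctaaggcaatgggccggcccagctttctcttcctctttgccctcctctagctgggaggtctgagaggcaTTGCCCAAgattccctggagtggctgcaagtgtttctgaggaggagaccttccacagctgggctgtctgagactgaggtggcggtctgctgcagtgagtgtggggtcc
Adipoq (chr16:23146286-23146585, plus strand): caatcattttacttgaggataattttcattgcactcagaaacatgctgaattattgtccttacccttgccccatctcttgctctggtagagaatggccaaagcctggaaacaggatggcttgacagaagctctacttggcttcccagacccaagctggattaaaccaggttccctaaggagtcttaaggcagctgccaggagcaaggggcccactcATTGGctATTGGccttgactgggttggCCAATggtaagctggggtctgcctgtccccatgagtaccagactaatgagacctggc
In the Ucp1 promoter, AGGTCA lay at -14 to -9 from the start. Plin1 held TTGCNNAA at -187 to -180 and at -58 to -51, and Adipoq held CCAAT at -7 to -3 and, on the other strand, at -34 to -30 and -27 to -23. Of the 32851 mouse promoters in the table, 16.3% held AGGTCA, 10.8% held TTGCNNAA and 37.4% held CCAAT on either strand, so each of these letter matches is common. A direct repeat of AGGTCA with 1 free base between its copies, the form that PPARG binds with its partner RXR, was in 0.0396% of all promoters and in none of the windows of the 6 members with an entry (Ucp1, Ppargc1a, Dio2, Pparg, Plin1 and Adipoq). TATAAA was in 13.6% of all promoters and in those of Dio2 and Pparg among these 6. In the build of the counts, GRCm39, the Ucp1 gene spans chr8:84016647-84025085, Plin1 chr7:79369966-79382718 and Adipoq chr16:22964106-22976810.

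Ucp1, Adipoq and Plin1 were at 0 or close to the detection floor before E15.5. Values below are normalized counts, that is expected counts divided by the median-ratio size factor of the library. In the 18 libraries of E10.5, E11.5 and E13.5, Ucp1 held at most 3 counts, and none passed the floor of 3 counts above which a gene is called detected here. Adipoq passed it in 1 of these 18 libraries, E13.5 larynx short-code 1 with 5 counts. Plin1, the perilipin that coats the adipocyte lipid droplet, passed it in 2, E11.5 larynx short-code 2 with 12 counts and E11.5 esophagus short-code 2 with 4. At E15.5, Ucp1 and Plin1 were detected in all 6 short-code libraries and in 1 of the 6 index libraries, and Adipoq in 6 and 2. Cidea, a protein of lipid droplets and mitochondria that marks brown adipocytes, was already detected at a low level in 4 of 6 libraries at E10.5 and 5 of 6 at E13.5, though in 0 of 6 at E11.5. It held 17.6 and 15.46 normalized counts in the E10.5 larynx and 12.6 and 15.02 in the E13.5 larynx, 6.83 and 10.6 in the E13.5 esophagus and 6.09 and 1.47 in the E13.5 trachea.

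**Figure D1:**
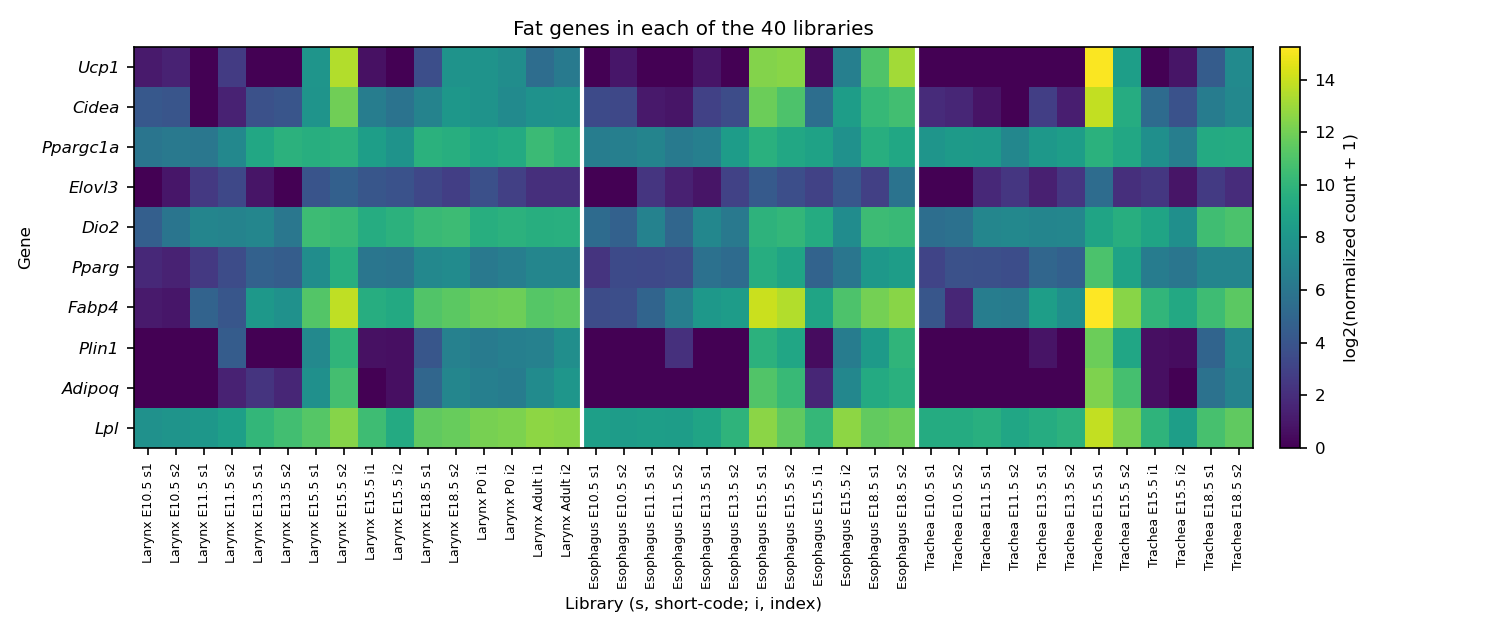
Levels of the 10 fat genes (rows) in each of the 40 libraries (columns, grouped by tissue and age; s, short-code and i, index) as log2(normalized count + 1). Ucp1, Plin1 and Adipoq are dark before E15.5 and bright in the 6 short-code E15.5 libraries, while Ppargc1a, Dio2 and Lpl show a level at every age.

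The other members were present earlier and at levels that differed between tissues. Lpl, the lipase that frees fatty acids from circulating lipoproteins, held 205 and 238 normalized counts in the E10.5 larynx, 393 and 341 in that of the esophagus and 675 and 676 in the trachea. Fabp4, a fatty acid carrier, held 0.859 to 15.6 in the 6 libraries of E10.5 and 195 to 371 in the 6 libraries of E13.5, while Ucp1 was not detected at either age, Plin1 in none of these 12 libraries and Adipoq in 1. Pparg held 1.72 to 12.8 at E10.5 and 21.5 to 50.4 at E13.5, in all 3 tissues. Endothelial markers (7 genes, all with counts) summed to 185 to 362 CPM at E10.5 and 499 to 851 CPM at E13.5, and their part in the level of Fabp4 was not tested.

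Ppargc1a, the coactivator that drives mitochondrial biogenesis, did not follow the rest in the larynx. It held 553 and 893 normalized counts in the larynx at E13.5, above the 95.7 and 343 of the esophagus and the 282 and 365 of the trachea. Cardiomyocyte markers (7 genes, all with counts) summed to 7736 and 13157 CPM in these E13.5 larynx libraries, 597 and 5455 CPM in the esophagus and 3357 to 5349 CPM in the trachea, which placed the esophagus library with fewer heart transcripts at the lowest Ppargc1a level. At E18.5 the same markers summed to at most 405 CPM in any library and Ppargc1a still held 550 to 865 normalized counts. Skeletal muscle markers (10 genes, all with counts) went the other way, from 218 to 1913 CPM over the E13.5 libraries to 20434 to 53942 CPM over those of E18.5. What part heart and skeletal muscle have in these levels was not tested.

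Dio2, the deiodinase that makes active thyroid hormone inside brown adipocytes and in many other cells, had a higher level by about the same factor in every tissue at E18.5 than at E13.5. It went from 129 and 64.4 normalized counts to 1308 and 1389.9 in the larynx, from 129.9 and 70.6 to 1396 and 1305 in the esophagus, and from 123 and 127 to 1532 and 1934 in the trachea. Those log2 differences were 3.80 (SE 0.657), 3.75 (SE 0.655) and 3.79 (SE 0.656), given without a test as for every member across ages, and the ages did not overlap in any tissue. Its highest library of all 40 was the E18.5 trachea short-code 2, unlike that of Ucp1. Elovl3, an elongase of very long fatty acids that brown fat induces in the cold, stayed low throughout, at 0 to 56.0 normalized counts in the 40 libraries, with its highest level in E18.5 esophagus short-code 2.

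The E15.5 trachea held the highest and some of the lowest levels of fat transcripts in the series. Ucp1 held 36309 normalized counts (22559 expected counts) in short-code library 1, 374 in short-code library 2, 0 in index library 1 and 0.819 in index library 2, where it had 2 counts. The group mean was 9171 ± 18093 (SD, n = 4), so that a mean describes none of the 4. In CPM, Ucp1 stood at 1438 in short-code library 1. Per kilobase of annotated exon, Ucp1 was first among the 10 in that library at 741 CPM. Fabp4 followed at 311, Cidea at 257, Adipoq at 87.6, Lpl at 48.7 and Plin1 at 22.4. The exon lengths used were 1.94 kb for Ucp1 and 4.95 kb for Fabp4. Before this scaling Fabp4 was above Ucp1, at 38932 against 36309 normalized counts. The order of Ucp1 and Fabp4 thus rests on the lengths used. Lengths of the transcripts present were not measured, so this order does not rank transcript levels.

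Cidea held 14495 and 701 normalized counts in the short-code libraries of E15.5 trachea and 39.1 and 13.52 in the index libraries. Fabp4 held 38932 and 5971 against 1054 and 598, and Plin1 3600.5 and 520.3 against 0.514 and 0.410. Adipoq held 5036 and 1709 against 0.514 and 0. The 2 kinds of library did not overlap for any of these genes, and library 1 was above library 2 for each. Pparg held 1951 and 457 against 83.3 and 62.7, and Lpl held 15045 and 4664 against 974 and 371. Ppargc1a was less spread, at 847, 567, 192 and 92.6, and Dio2 ran the other way between the short-code libraries, at 484 and 769 against 469 and 192, with the smallest gap between its 2 kinds of library among these genes.

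**Figure D2:**
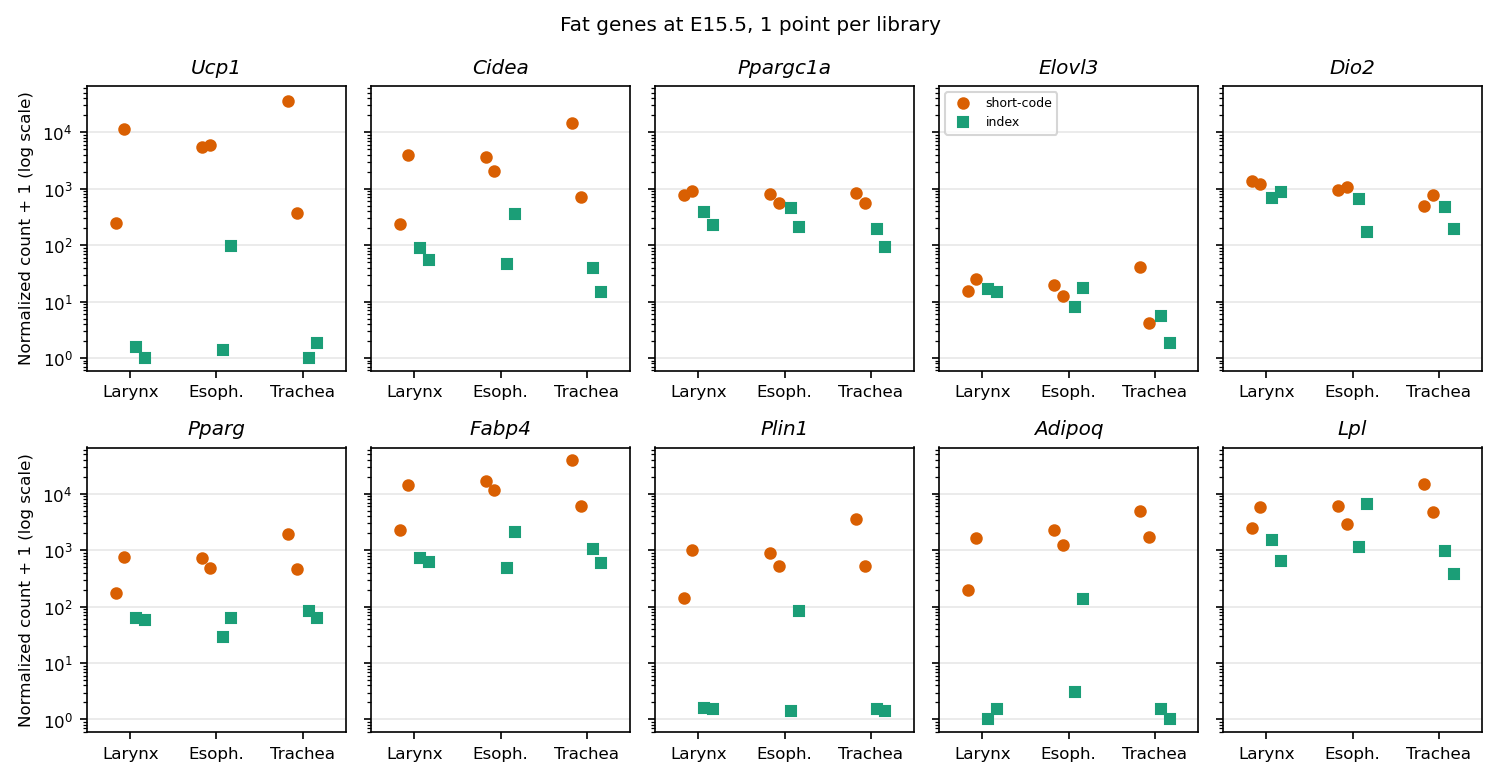
Normalized count + 1 (log scale) of each fat gene at E15.5 in the larynx, esophagus and trachea, 1 point per library, with circles for short-code and squares for index libraries. Ucp1 spans from 1 to over 36309 in the trachea, and its index libraries sit near the bottom of the panel in every tissue except for esophagus index 2 at 96.3.

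The size of the gap between the 2 short-code trachea libraries differed from gene to gene. Library 1 over library 2 was 97.1-fold for Ucp1, 20.7-fold for Cidea and 12.8-fold for Elovl3, the last from 25 and 2 counts. It was 6.92-fold for Plin1, 6.52-fold for Fabp4, 4.26-fold for Pparg, 3.23-fold for Lpl and 2.95-fold for Adipoq. Ppargc1a differed 1.49-fold and Dio2 was at 0.630 of library 2. The brown fat genes thus stood at both ends of this order, with Ucp1, Cidea and Elovl3 at the top and Ppargc1a and Dio2 at the bottom, and the genes that both kinds of adipocyte use lay between them.

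Markers of other cell types also differed between the 4 E15.5 trachea libraries. Skeletal muscle markers (10 genes, all with counts) summed to 14981 CPM in short-code 1, 25377 in short-code 2, 4470 in index 1 and 1036 in index 2, and cartilage markers summed to 3302, 3604, 14077 and 9245 CPM. Thyroid follicle markers (7 genes) summed to 6.76, 1136, 9545 and 1034 CPM in the same order. Thymocyte markers (10 genes) summed to 5.42, 275, 2.07 and 1.81 CPM, and in short-code 1 the T cell precursor gene Ptcra was at 0. Endothelial markers, beside which Fabp4 is to be read, summed to 510, 412, 718 and 469 CPM. The part of these cell types in the levels of the fat genes was not tested. In bulk tissue, a smaller share of adipocytes and less RNA per adipocyte cannot be told apart.

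At E15.5 the larynx had the same split between its libraries, with the second short-code library on top. In this tissue the index libraries are labelled vocal fold and the short-code libraries larynx, so library kind and label cannot be told apart. Ucp1 held 242 and 11542 normalized counts in the short-code and 0.581 and 0 in the index libraries. Cidea held 232 and 3967 against 87.1 and 53.9, Fabp4 2312 and 14014 against 715 and 607, and Adipoq 197 and 1669.6 against 0 and 0.545. In the esophagus both short-code libraries were high, with Ucp1 at 5533 and 6016, Cidea at 3594 and 2049 and Adipoq at 2239 and 1237. Esophagus index 2 was the only index library of this age with more than 3 counts of Ucp1, at 96.3 normalized counts beside 0.410 in index 1, and it also held 82.2 of Plin1 and 133 of Adipoq. This library was the highest of the 40 for 22.7% of 16679 genes with a mean CPM of at least 1, and for no member. Lpl held 6472 in that library and 6148 in short-code 1, above the 2963 of short-code 2 and the 1122 of index 1. Skeletal muscle markers were also highest in those same libraries, at 29105 and 36893 CPM against 12658 and 7328, and their part in the level of Lpl was not tested.

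Index libraries of later ages did hold Ucp1. At P0 the larynx held 226 and 177 normalized counts of Ucp1 and in the adult 42.3 and 78.2, against 0.581 and 0 in the index libraries of the E15.5 larynx. Adipoq went from 0 and 0.545 in the E15.5 index libraries to 93.0 and 83.3 at P0 and 163 and 262 in the adult. Dio2 held 686 and 883 at E15.5 in index libraries and 755 and 897 at P0, so that it did not share this step.

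In 17 libraries with at least 20 counts of Adipoq, the ratio of Ucp1 to Adipoq counts spanned a wider range than the ratios of Cidea, Plin1, Fabp4, Pparg and Lpl to Adipoq did. It ran from 0.219 in E15.5 trachea short-code 2 to 10.8 in E18.5 esophagus short-code 2, a span of 49.2-fold around a median of 1.85. E15.5 trachea short-code 1 stood at 7.21 and E15.5 larynx short-code 2 at 6.91, and the adult larynx libraries stood at 0.260 and 0.298. Ucp1 was also below Adipoq in E18.5 larynx short-code 1 (0.364), E18.5 trachea short-code 1 (0.405) and E15.5 esophagus index 2 (0.722). At P0 the ratio was 2.44 and 2.12. Cidea per Adipoq spanned 8.53-fold, from 0.410, again in E15.5 trachea short-code 2, to 3.50, and Plin1 per Adipoq only 4.14-fold, from 0.305 to 1.26. Lpl per Adipoq spanned 38.4-fold and was highest, at 92.1, in E18.5 larynx short-code 1, which held 22 counts of Adipoq.

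**Figure D3:**
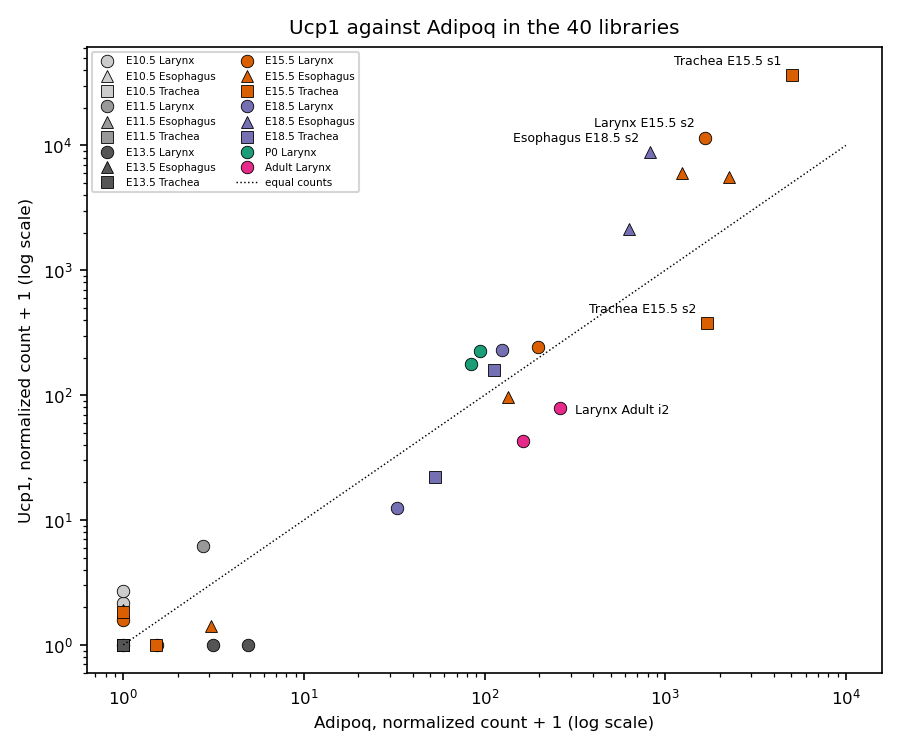
Ucp1 against Adipoq, both as normalized count + 1 on log scales, in the 40 libraries (color, age; shape, tissue; dotted line, equal counts). Among libraries with at least 20 counts of Adipoq, E15.5 trachea short-code 2 and both adult larynx libraries lie lowest below the line, at ratios of 0.219, 0.260 and 0.298. Also below it are E18.5 larynx short-code 1 (0.364), E18.5 trachea short-code 1 (0.405) and E15.5 esophagus index 2 (0.722). The E15.5 esophagus short-code libraries and E15.5 trachea short-code 1 lie above it.

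From E15.5 to E18.5, mean levels of the most fat-specific members in short-code libraries were lower again in the trachea and larynx, and much less so in the esophagus. Ucp1 averaged 18342 normalized counts in the E15.5 and 89.7 in the E18.5 trachea, a ratio of 204, and 5892 against 121 in the larynx, a ratio of 48.7. In the esophagus it averaged 5774 and 5472, a ratio of 1.06. The ratios for Adipoq were 41.4 in the trachea, 11.95 in the larynx and 2.403 in the esophagus, and for Pparg 9.81, 3.16 and 1.89. The E15.5 means of Ucp1 in trachea and larynx rest on 1 of their 2 libraries, and the lower of the 2 stood at 374 in the trachea and at 242 in the larynx. The E18.5 levels were 21.01 and 158 in the trachea and 11.6 and 230.2 in the larynx, all below those lower values.

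Compared with E13.5, all 10 members had higher means at E18.5 in each tissue, which the choice of members already used. Median log2 differences over the 10 were 3.79 in the larynx, 3.89 in the esophagus and 3.34 in the trachea. The median over all 36495 genes was 0 each time. Against a floor of 3 counts per library, Ucp1 was at least 43.3-fold higher in the larynx and at least 26.9-fold higher in the trachea. Adipoq was at least 277.7-fold higher in the esophagus and at least 24.4-fold higher in the trachea, and Plin1 at least 251-fold in the esophagus. Lpl was 2.32-fold higher in the larynx, 4.67-fold in the esophagus and 3.00-fold in the trachea. The ages overlapped for Ppargc1a in the larynx, at 553 and 893 against 865 and 763, and for Elovl3 in 2 tissues, with 1 and 8 expected counts against 4 and 34 in the esophagus and 2 and 3 against 4 and 3 in the trachea. The log2 difference of Elovl3 in the trachea, 0.46 (SE 1.35), ran from -0.17 to 1.28 when 1 library was left out. Skeletal muscle markers were also far higher at E18.5, with the values given beside Ppargc1a, and the part of muscle in the member differences was not tested.

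Whether the organs differed in these genes once fat was present was tested at E18.5. The choice of members used the onset with age in these same libraries, though it named no difference between organs at E18.5. In the esophagus Ucp1 held 2135 and 8809 normalized counts, against 21.01 and 158 in the trachea and 11.6 and 230.2 in the larynx. Cidea held 1173 and 1593 there, against 85.3 and 135 in the trachea and 111 and 273 in the larynx. Adipoq held 629 and 818 in the esophagus against 51.9 and 111 and 31.8 and 124, and Plin1 held 315 and 992 against 29.7 and 140.1 and 15.9 and 101. For these genes and for Pparg and Fabp4, the 2 esophagus libraries were above all 4 of the airway. These esophagus libraries also held 1855 to 3905 CPM of cartilage markers, and the part of neighbouring tissue in their fat gene levels was not tested. Across all 36495 genes, 0% were called higher, lower or in either direction in each of the 3 organ comparisons (adjusted p under 0.05, edgeR quasi-likelihood), against 1.24%, 3.82% and 2.87% of genes with an unadjusted p under 0.05 and 0.011%, 0.247% and 0.0712% called by DESeq2 in trachea minus esophagus, larynx minus trachea and larynx minus esophagus.

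These differences did not pass the test across all genes, which does not show that the organs were alike. The fit shares 1 spread with the E15.5 groups, which mix the kinds of library. Its common dispersion was 0.298, against 0.110 with only the short-code libraries. In each organ comparison the share of genes with an unadjusted p under 0.05 (edgeR) was itself below 0.05, so the test was strict. Trachea minus esophagus was -5.92 on the log2 scale for Ucp1 (SE 3.63) and -3.64 for Cidea (SE 1.96), and larynx minus esophagus was -5.49 for Ucp1 (SE 3.56) and -2.84 for Cidea (SE 1.89). Adipoq differed by -3.14 (SE 2.73) and -3.20 (SE 2.75) in the same order. Every adjusted p of the 10 members in the 3 organ comparisons was 1.0 (edgeR quasi-likelihood, Benjamini-Hochberg). No member was called by DESeq2 either, and 1 member in 1 comparison had an unadjusted p under 0.05, Elovl3 in trachea minus esophagus at -2.97 (SE 1.305), where the esophagus libraries held 4 and 34 counts. With only the short-code libraries in the fit, where the spread was estimated lower, larynx minus esophagus had an adjusted p of 0.124 for Adipoq and 0.268 for Ucp1 (edgeR), and trachea minus esophagus 0.416 and 0.635 (edgeR). Without the 5 libraries that stand apart, the adjusted p of Ucp1 was 0.513 and 0.944 (edgeR) in the same order. Larynx minus trachea was closer to 0, from -0.54 for Plin1 to 0.91 for Elovl3, with 0.43 (SE 3.04) for Ucp1.

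Dio2, Ppargc1a and Lpl differed least between the organs at E18.5. Dio2 held 1396 and 1305 in the esophagus beside 1532 and 1934 in the trachea and 1308 and 1389.9 in the larynx, with a trachea minus esophagus difference of 0.36 (SE 0.584). Ppargc1a differed by 0.01 (SE 0.706) in trachea minus esophagus, where the organs overlapped, and by 0.32 (SE 0.706) and 0.33 (SE 0.707) in larynx minus trachea and larynx minus esophagus, where they did not. Lpl differed by -0.12 (SE 0.936) in larynx minus esophagus with overlap, and by -0.53 (SE 0.938) in trachea minus esophagus and 0.41 (SE 0.937) in larynx minus trachea without it. Larynx minus trachea for Dio2 was -0.36 (SE 0.584), also without overlap. These SEs leave room for differences of more than 1 log2 unit in either direction. Thyroid follicle markers summed to 1930 to 3448 CPM in the E18.5 esophagus, 6785 to 10124 CPM in the trachea and 21.9 to 559 CPM in the larynx, and did not order the organs as Ucp1 did.

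**Figure D4:**
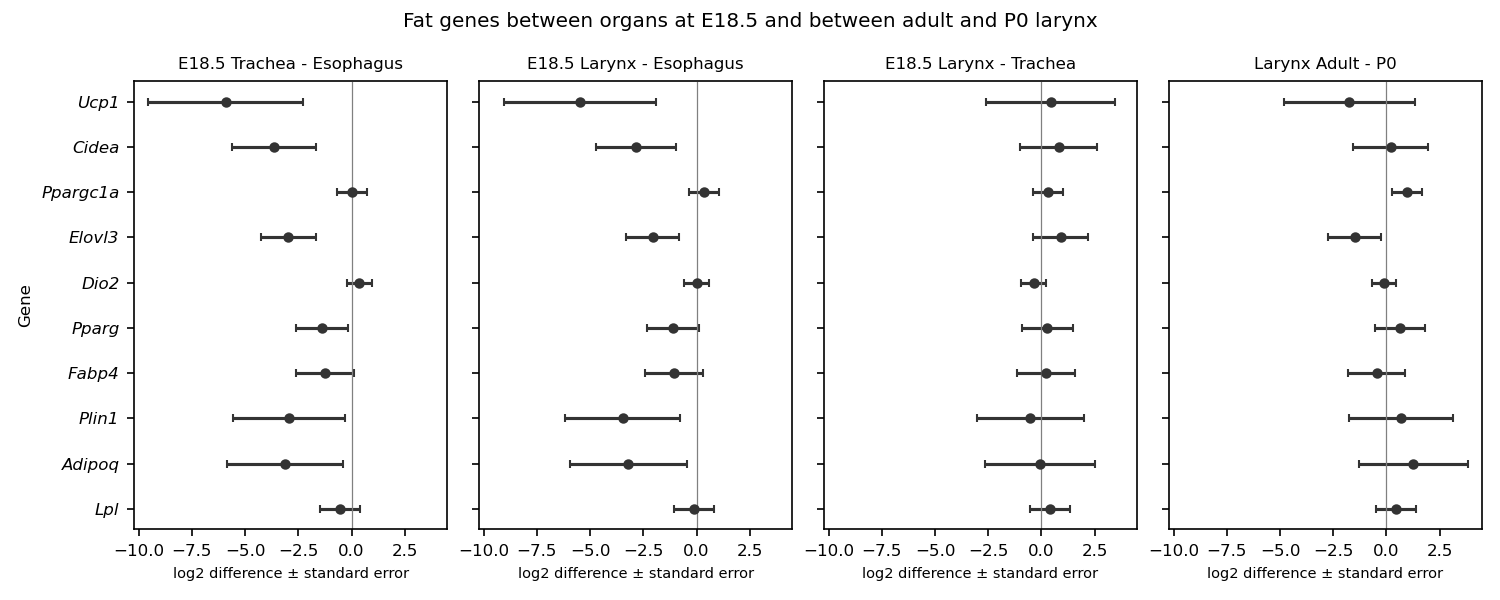
Log2 differences (points) with standard errors (bars) of the 10 fat genes for 3 comparisons between organs at E18.5 and for adult minus P0 larynx, 2 libraries per group. Ucp1, Cidea, Plin1 and Adipoq lie left of 0 where esophagus is subtracted, with the standard error of Ucp1 at 3.63 and 3.56, and Dio2, Ppargc1a and Lpl lie near 0.

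From P0 to the adult larynx, none of the members passed the test. Ucp1 held 226 and 177 normalized counts at P0 and 42.3 and 78.2 in the adult, without overlap, a log2 difference of -1.74 (SE 3.07, adjusted p = 1.0, edgeR quasi-likelihood). Adipoq moved the other way, from 93.0 and 83.3 to 163 and 262, a difference of 1.27 (SE 2.55, adjusted p = 1.0, edgeR). Lpl went from 4389 and 4780.4 to 6400.5 and 6045 and Ppargc1a from 527 and 652 to 1342 and 947, both without overlap, with adjusted p of 1.0 and 0.803 (edgeR). Elovl3 went from 12.04 and 6.36 to 3.19 and 3.20 (adjusted p = 0.857, edgeR). Fabp4 went from 3428 and 3725 to 2420.2 and 2760.0, and Cidea and Dio2 overlapped. In this comparison 0.592% of all genes were called higher, 0.959% lower and 1.55% in either direction, and 0 of 10 members by edgeR or DESeq2, with 0 at an unadjusted p under 0.05 as well.

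The rest of the fat program was read from 77 other fat genes in 7 lists, from regulators and lipid droplet proteins to adipokines. In the larynx, 4 of the 77 rose from E13.5 to E18.5 and 2 fell, against 2.95% of all genes called higher, 1.34% lower and 4.29% in either direction. In the esophagus 5 rose and 0 fell, against 3.24%, 1.76% and 5.01%. In the trachea 6 rose and 0 fell, against 3.64%, 2.34% and 5.98%. Of the list, 5.19%, 6.49% and 7.79% thus rose in larynx, esophagus and trachea, each share above that of all genes. In the larynx the share that fell, 2.60%, was also above the 1.34% of all genes. All of these shares rest on few genes. At an unadjusted p under 0.05, 23 of the 77 were higher in the larynx (29.9%, against 8.69% of all genes), 34 in the esophagus (44.2%, against 9.18%) and 21 in the trachea (27.3%, against 9.58%). By the same measure 3, 4 and 1 were lower, below the shares of all genes of 5.99%, 6.83% and 7.12%. The log2 difference was above 0 for 56, 59 and 60 of the 77, and list medians were 0.88, 1.58 and 0.90. These shares are a description, since the lists were chosen with earlier results of these data known.

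How many of the 77 passed differed between the fits that were run. With only the 30 short-code libraries in the fit, 26 rose in the larynx (33.8%, against 8.03% of all genes), 38 in the esophagus (49.4%, against 8.75%) and 28 in the trachea (36.4%, against 9.19%). DESeq2 on all libraries called 15, 27 and 18 higher, or 19.5%, 35.1% and 23.4%, against 5.46%, 5.88% and 6.3% of all genes. The DESeq2 shares of all genes, here and below, are out of 36495 genes, whether or not DESeq2 gave them an adjusted p. Those 36495 include genes of very low level and were not matched to the 77, so gaps between the shares may be too wide. It called 3, 2 and 1 lower, against 3.32%, 4.21% and 4.66% of all genes. Leaving out 1 library of a compared group brought the counts down to between 0 and 2. In the larynx 0 remained called without E18.5 library 1 or without either E13.5 library and 2 without E18.5 library 2, and 0 fell in each case. In the esophagus it was 2 without E18.5 library 1 and 0 without any of the others, and in the trachea 0 without E13.5 library 2 and 2 without any of the others.

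Plin5, the perilipin of oxidative tissues, was called in all 3 tissues and went from 5.51 and 3.22 normalized counts to 428 and 678 in the larynx, from 9.40 and 0.882 to 283 and 909 in the esophagus, and from 5.33 and 0 to 208 and 434 in the trachea. The log2 differences were 6.92 (SE 1.98, adjusted p = 0.0420, edgeR), 6.82 (SE 1.95, adjusted p = 0.0384) and 6.61 (SE 2.00, adjusted p = 0.0456). Gpihbp1, the anchor that holds the member Lpl on capillary walls, was also called in all 3, by 2.94 (SE 0.704), 2.44 (SE 0.688) and 2.65 (SE 0.695). Its E18.5 libraries lay between 517 and 636 normalized counts and its E13.5 libraries between 52.6 and 124. The regulators Klf15 and Cebpd rose in the trachea by 2.98 (SE 0.563) and 2.49 (SE 0.593), Klf15 also in the larynx by 2.60 (SE 0.557), and Cebpd also in the esophagus by 2.31 (SE 0.590).

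Acsl1, which activates fatty acids, rose in the esophagus by 3.28 (SE 0.832) and in the trachea by 2.71 (SE 0.812), and held 803 and 798 normalized counts against 4528 and 5877 in the larynx. Gyk, the glycerol kinase, rose in the esophagus by 1.91 (SE 0.567), and the fatty acid transporter Slc27a1 rose in the trachea by 1.27 (SE 0.330). Car3, a carbonic anhydrase of white fat and of muscle, rose in the larynx by 7.61 (SE 2.01), from 44.1 and 69.8 to 11592 and 10649. Tcf21 and Nnat, listed with Car3 as leaning to white fat, fell in the larynx, by 5.66 and 3.36 on the log2 scale, with SEs of 1.61 and 0.935. The called genes of that list thus went both ways. Skeletal muscle markers (10 genes, all with counts) summed to 218 to 1913 CPM in the 6 libraries of E13.5 and to 20434 to 53942 CPM in the 6 of E18.5. Muscle uses Car3, Plin5, Acsl1 and Klf15 too, and the part of muscle in these calls was not tested.

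**Figure D5:**
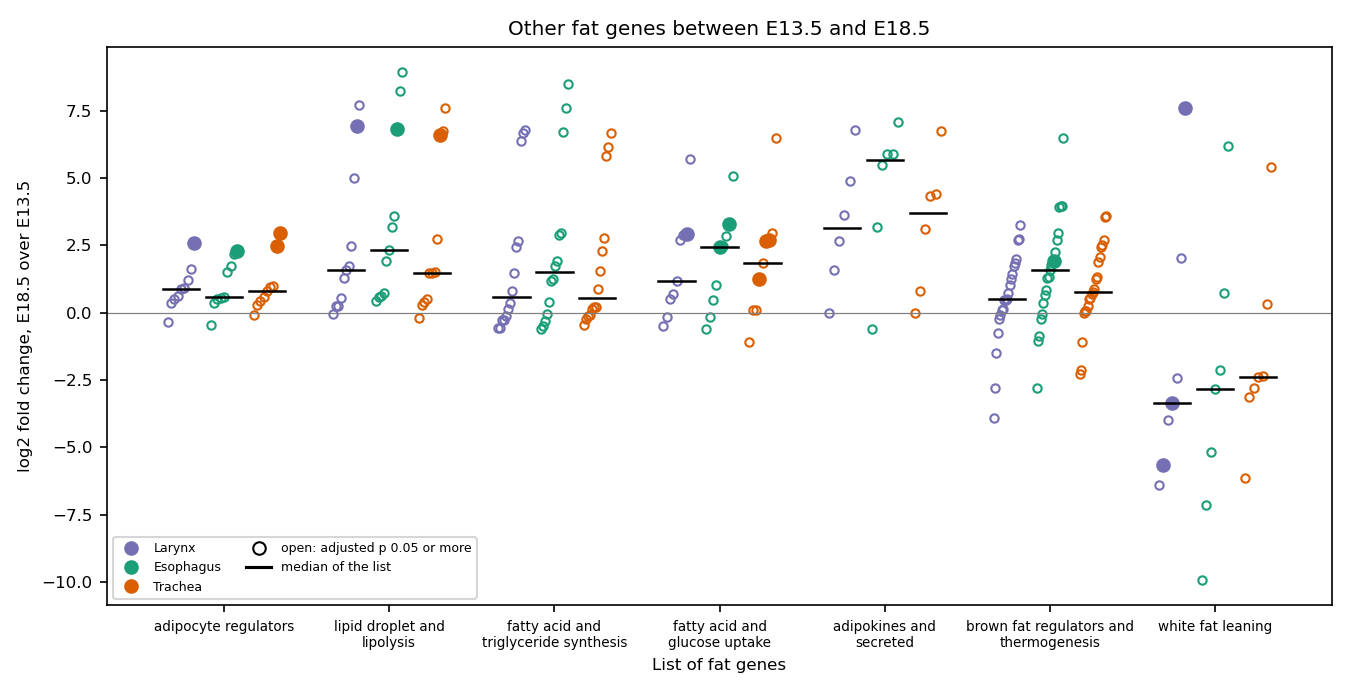
Log2 fold change from E13.5 to E18.5 of the 77 other fat genes, 1 point per gene, in 7 lists and 3 tissues (filled, adjusted p under 0.05; open, not; bar, median of the list). In the lists other than the one leaning to white fat the medians lie above 0 in each tissue, and the adipokine medians are the highest at 3.15, 5.68 and 3.72.

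Of the lists, adipokines and secreted proteins had the highest medians (3.15, 5.68 and 3.72 in larynx, esophagus and trachea), and the genes leaning to white fat the lowest (-3.36, -2.85 and -2.38). An unadjusted p under 0.05 was reached by 1, 2 and 1 of the 6 adipokines, and none passed the adjusted test of edgeR. Lipid droplet and lipolysis genes had 1 of 11 called in each tissue, with medians of 1.60, 2.33 and 1.49, and brown fat regulators had 1 of 21 called, Gyk in the esophagus, with medians of 0.50, 1.58 and 0.79. Plin4, another droplet coat protein of adipocytes and muscle, held 9.40 to 22.5 normalized counts in the 6 libraries of E13.5 and 1257 to 5515 in those of E18.5. Pnpla2, the lipase that opens triglyceride breakdown, held 101 to 206 and 802 to 1728.

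Between organs at E18.5, 0 of the 77 other fat genes were called by edgeR or by DESeq2. Unadjusted p (edgeR) was under 0.05 for 0 genes in trachea minus esophagus, 1 in larynx minus trachea (Prdm16, the brown fat coregulator, lower in the larynx) and 2 in larynx minus esophagus (Adrb3 and Otop1, both lower in the larynx). Shares of all genes by the same measure were 1.24%, 3.82% and 2.87%, so the 77 were not above them in any comparison. From P0 to the adult larynx, 1 of the 77 rose, Fasn, the fatty acid synthase, from 1997 and 2107 to 5561 and 5619 normalized counts, by 1.45 (SE 0.323, adjusted p = 0.0164, edgeR), and 0 fell. Unadjusted p was under 0.05 for 8 higher (10.4%, against 5.35% of all genes) and 4 lower (5.19%, against 5.12%). DESeq2 called 6 higher (7.79%, against 2.43%) and 1 lower (1.299%, against 2.4%). With only the 10 index libraries in the fit or without any 1 of the 4 libraries compared, 0 were called higher. Scd1, the desaturase, went from 506 and 677 to 8260 and 10537 (adjusted p = 0.0793, edgeR).

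Some of the other fat genes, though not most, had their highest level in the same library as most members. E15.5 trachea short-code 1 was the highest of the 40 libraries for 7 of the 10 members and for 34 of the 77 other fat genes (44.2%), against 5.67% of 16679 genes with a mean CPM of at least 1. The choice of members used the spread of this trachea, and the lists were chosen with earlier results known. These shares are therefore a description. Esophagus index 2 held the highest level of 15 of the 77 (19.5%), against 22.7% of all genes. In E15.5 trachea short-code 2, where Ucp1 was low beside Adipoq, 3 of the 77 were highest. Of the 77, 60 were higher in short-code 1 than in short-code 2 of this trachea and 17 were lower. Among them, 18 of 21 brown fat regulators were higher, and 4 of 6 adipokines and 5 of 7 genes leaning to white fat were lower. The share over all genes was not counted for this pair of libraries, so these counts have no background to be read against. The genes named next include some outside the naming rule, picked after their values were seen. Retn, the adipocyte hormone resistin, held 20.9 normalized counts in library 1 and 479 in library 2, and Lep, leptin, held 43.5 and 59.7. The adipokines Adig and Rbp4 went the other way, at 1027 against 116 and 475 against 237. Of the brown fat regulators, Otop1 held 496 and 12.6, Kcnk3 1511 and 146, and Zic1, a regulator of classical brown fat, 573 and 78.6, whereas Adrb3 held 10.7 and 57.3 and Fabp3 616 and 802. Cfd, the secreted protein adipsin, held 1115 and 1135, and Retn, Lep, Otop1 and Cfd had at most 1 count in either index library of the E15.5 trachea.

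Genes most like the members over the 40 libraries were genes of fat and of lipid use. Pearson's correlation of log2(CPM + 1) with the mean of the 10 members, among 16670 genes, was highest for Thrsp (0.962), Gpd1 (0.957), Pck1 (0.948), Aqp7 (0.944), Trarg1 (0.941), G0s2 (0.941), Acadvl (0.935), Ppara (0.934), Cidec (0.932) and Pnpla2 (0.931). Closest to Ucp1 were Pck1 (0.955), Cidec (0.939), Lipe (0.935), Slc36a2 (0.935) and Trarg1 (0.932), and closest to Adipoq were Cidec (0.986), Pck1 (0.979), Lipe (0.948), Thrsp (0.940) and Slc36a2 (0.939). These values describe points that share age, library kind and tissue, and several of the genes are also in the 7 lists. In the E15.5 trachea, Pck1, which feeds glycerol into triglyceride, held 7420 and 905 normalized counts in the short-code and 4.11 and 2.87 in the index libraries, and Cidec, a droplet protein, 4186 and 808 against 1.03 and 0.410.

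Among the members themselves, the closest pair over the 12 libraries of E15.5 was Plin1 and Adipoq (r = 0.991), and Ucp1 and Cidea followed each other at 0.977. Ucp1 and Adipoq stood at 0.949. The 12 libraries share the split by library kind, and the choice of members used the spread of the trachea among them. All r values at this age are therefore a description. Dio2 stood apart, with r between -0.20 (Lpl) and 0.20 (Elovl3) to 8 of the other 9 members at this age and 0.69 to Ppargc1a. Over all 40 libraries Dio2 and Ucp1 had r = 0.53, where age is shared by both.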

How the data were processed

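Poly-A RNA of each library was sequenced. Per the submitters' processing notes and the study's methods, the authors checked reads with FastQC 011.5, aligned them to GRCm39 with Bowtie2 2.4.2 and deposited expected counts per gene from RSEM 1.3.3, which splits reads shared by several genes, with no normalization. The sources do not say whether strand was used, so a gene and its antisense partner may share reads.

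Identifiers were matched to GENCODE vM39 (52610 of 53647), and all 172 list genes were found. Expected counts were rounded and divided by median-ratio (RLE) factors, keeping 36495 genes that reached a normalized count of 1 in 2 or more libraries. In edgeR 4.0.16 (R 4.3.3, limma 3.58.1), all 40 libraries were fitted with a mean for each of 17 combinations of tissue and age, which share 1 estimate of spread, and contrasts were tested by quasi-likelihood with Benjamini-Hochberg adjustment at 0.05. The step was tested on simulated data. Alternatives were DESeq2 1.42.0, TMM factors, no filter, a replicate block, a term for library kind, 1 kind of library and left-out libraries.

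Members, lists and tests were chosen with earlier results of these data known. Named were all members, other fat genes past the threshold (at most 8 per direction and comparison), the 3 most abundant genes of each list, the 10 genes most like the members' mean and the 5 most like Ucp1 and Adipoq each. No libraries held identical values. The study calls the 2 libraries of a group biological replicates, without stating whether P0 and adult larynges were pooled. A count of 0 allows up to 3 counts per library, for counting error only. Promoters were taken from RefSeq, build GRCm38.p6, for 6 of the 10 members.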

Additional observations from a re-analysis of the deposited data

Results flagged for a closer look

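In 11 of the 30 combinations of member and tissue at E15.5, which hold 4 libraries each, the top library lay farther from the other 3 than Dixon's 95% critical value for 4 samples allows. Chance flags about 1 in 20 groups of like samples, a rate that these flags cannot be read against: each group mixes 2 short-code and 2 index libraries, the 30 groups share 12 libraries, and the genes were chosen for their spread in the trachea. All 11 were the short-code library 1 of the trachea or the short-code library 2 of the larynx. In the trachea library, the normalized counts were 36309 for Ucp1, where the others reached at most 374, 14495 for Cidea, where they reached 701, 40.2 for Elovl3, where they reached 4.63, 38932 for Fabp4, where they reached 5971, and 3600.5 for Plin1, where they reached 520.3. In the larynx library, they were 11542 for Ucp1 (others at most 242), 3967 for Cidea (232), 764 for Pparg (176), 14014 for Fabp4 (2312), 989 for Plin1 (144) and 1669.6 for Adipoq (197). None of the esophagus groups was flagged.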

How the results depend on the processing

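Counts of other fat genes between E13.5 and E18.5 moved most with the choice of libraries. Genes called higher in larynx, esophagus and trachea (4, 5 and 6) became 9, 12 and 11 with no filter on low counts, 17, 29 and 19 with library kind as a term, 26, 38 and 28 with 1 kind of library, 23, 35 and 21 without the 5 libraries that stand apart, and 15, 27 and 18 in DESeq2. Genes called lower (0 in the esophagus and 0 in the trachea) became 1 and 1, 2 and 1, 2 and 2, 3 and 4, and 2 and 1 in the same order of settings. From P0 to the adult, the 1 gene called higher became 2, 6, 0, 15 and 6, and the 0 called lower became 1 with no filter, 1 without the 5 libraries and 1 in DESeq2. Leaving out 1 library gave 0 to 2 genes higher in each tissue, 0 lower in the larynx and 0 higher in the adult. Organ comparisons at E18.5 called 0 members and 0 other fat genes under every setting run. The cause of these changes was not tested.

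Among the tested members, Dio2 in larynx minus esophagus reversed around 0, from -0.0016 to 0.0091 with TMM, 0.0027 with the replicate block and 0.0005 without the 5 libraries. Reversals also occurred when 1 library was left out: Dio2 ranged from -0.0477 to 0.0486 in that comparison and from -0.2292 to 0.0169 in adult minus P0, and Cidea from -0.0254 to 0.4834 in the latter. In larynx minus trachea, Ucp1 ranged from -2.9543 to 2.5243, Fabp4 from -0.1599 to 0.7162, Plin1 from -2.4138 to 0.982 and Adipoq from -1.3588 to 0.6034. Ppargc1a in trachea minus esophagus ranged from -0.1966 to 0.2426, and Elovl3 in larynx minus esophagus from -2.8995 to 0.1854. Mean levels in the E15.5 trachea moved by less than 1 SD under every setting. For a left-out library this holds for any 4 values, so it does not show that the means are stable. The mean of Ucp1 was 125 in place of 9171 without short-code library 1.

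With the replicate number as a replicate block, 4, 4 and 6 other fat genes rose with age in larynx, esophagus and trachea and 1 in the adult, and no call of a member changed. Same-numbered libraries did not deviate together (r from -0.078 to 0.071 over the 7 comparisons, 2 pairs each), so the samples share only a number. Depth limits the genes at 0: fewer than 3 counts cannot be told from none.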
